A study of Mus musculus with 16 samples.

Results

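The miR-181 family was measured in mouse bone marrow cultures as the cells matured into mast cells. Its 5 members on the array, mmu-miR-181a, mmu-miR-181b, mmu-miR-181c, mmu-miR-181d and mmu-miR-181a-1* (called miR-181a and so on here), were taken by their names from the 577 miRNAs the array reports on. The study set 4 groups of 4 one-colour arrays side by side, all from Balb/c mice and all grown in IL-3 (5 ng/ml) and SCF (20 ng/ml), the cytokines that drive mast cell growth. MMC are mast cells of the mucosal type, for which IL-9 and TGF-beta were added to the cultured cells for 5 more days. IgE_BMMC are cultured mast cells sensitised with an anti-DNP IgE and challenged for 2 hours with DNP antigen, which crosslinks the IgE receptor. BMMC are bone marrow-derived mast cells after 4 weeks of culture. Progenitors are the c-kit-positive cells drawn from the culture by magnetic separation on day 6. All groups are grown outside the animal, and the labels call the progenitors putative. The array carries no messenger RNA probe, so c-kit itself was not checked. The series calls the 4 samples of a group biological replicates. No label says whether these were separate animals or cultures, so the p-values speak only of the spread among these arrays, part of which may be technical.

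A microRNA guides an Argonaute protein to messenger RNAs, mainly through its seed, the bases 2 to 8 from its 5′ end, and lowers the output of its targets. The miR-181 family was cloned early from bone marrow and lymphoid tissue. In mice, miR-181a raises the B-cell output of marrow progenitors that are made to express it, and it tunes the sensitivity of the T-cell receptor in the thymus. In this family the a, b, c and d forms are the arms that are mostly retained, whereas miR-181a-1* is the opposite arm of the hairpin, usually the less abundant strand.

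The mature sequences are shown because the members differ in few bases and yet moved apart in these cells. They are from RefSeq (GRCm38.p6), where all 5 array names were found under their newer -5p and -3p names, and are written 5′ to 3′ with the seed in capitals.
miR-181a: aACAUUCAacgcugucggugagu
miR-181b: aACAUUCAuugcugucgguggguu
miR-181c: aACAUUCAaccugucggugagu
miR-181d: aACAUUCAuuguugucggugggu
miR-181a-1*: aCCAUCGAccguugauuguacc
The a, b, c and d forms share the seed ACAUUCA, and they are the only 4 of the 1679 mature mouse names in the table that carry it. The seed of miR-181a-1*, CCAUCGA, is shared there only with the opposite arm of the miR-181c hairpin. Outside the seed, miR-181a and miR-181c are 1 edit (a changed, added or lost base) apart. MiR-181b and miR-181d are 2 edits apart, the substitution C12U and the extra last base of miR-181b. Between these pairs the distances are larger, 4 edits for miR-181a against miR-181b and for miR-181a against miR-181d, and 5 for miR-181b or miR-181d against miR-181c. The substitutions of miR-181d against miR-181a are A9U, C10U, C12U and A21G, counted from 1 at the 5′ end of miR-181a, which is written first in each.

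The pairs formed by sequence are not the pairs formed by position. MiR-181a and miR-181b lie together at 2 loci on the plus strand, and both loci give the same mature forms. At the first, miR-181a lies at chr1:137966468-137966490 and miR-181b at chr1:137966650-137966673, 182 bases apart from start to start. At the second, miR-181a lies at chr2:38852741-38852763 and miR-181b at chr2:38853845-38853868. MiR-181c (chr8:84178924-84178945) and miR-181d (chr8:84178759-84178781) lie 164 bases apart on the minus strand. The array therefore cannot tell the 2 sources of miR-181a or of miR-181b apart. MiR-181c and miR-181d have 1 locus each. Of the members made on chromosomes 1 and 2, only miR-181a-1* belongs to 1 locus, Mir181a-1. The hairpin of Mir181a-1 is shown with both mature arms in capitals, miR-181a first and miR-181a-1* second.
Mir181a-1 hairpin (chr1:137966455-137966541, plus strand): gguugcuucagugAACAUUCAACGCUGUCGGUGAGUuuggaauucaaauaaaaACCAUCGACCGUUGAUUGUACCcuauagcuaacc
The opposite arm of the other miR-181a hairpin, miR-181a-2*, is also on the array and was well above background on 0 of 16 arrays.

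Levels are spot intensities of the brighter of each member's 2 probes, in arbitrary units, divided by a scale factor per array. That factor is the 75th percentile of the 205 probes that the extraction software called well above background on all 16 arrays. The factors ran from 1.1 to 1.3 in MMC, from 0.476 to 0.642 in IgE_BMMC, from 1.99 to 2.69 in BMMC and from 0.524 to 0.674 in progenitors. The BMMC arrays were thus the brightest, and the IgE_BMMC arrays were about as bright as the progenitors'. Values were raised to a floor of 11.8 (3.56 on the log2 scale) before testing. Progenitor replicate 4 stood apart: its lowest signal called well above background was 58.3, against 16 to 20 on the other progenitor arrays, and miR-181a-2* read 50.2 there. Signals of that size on that array are close to its background.

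**Figure D1:**
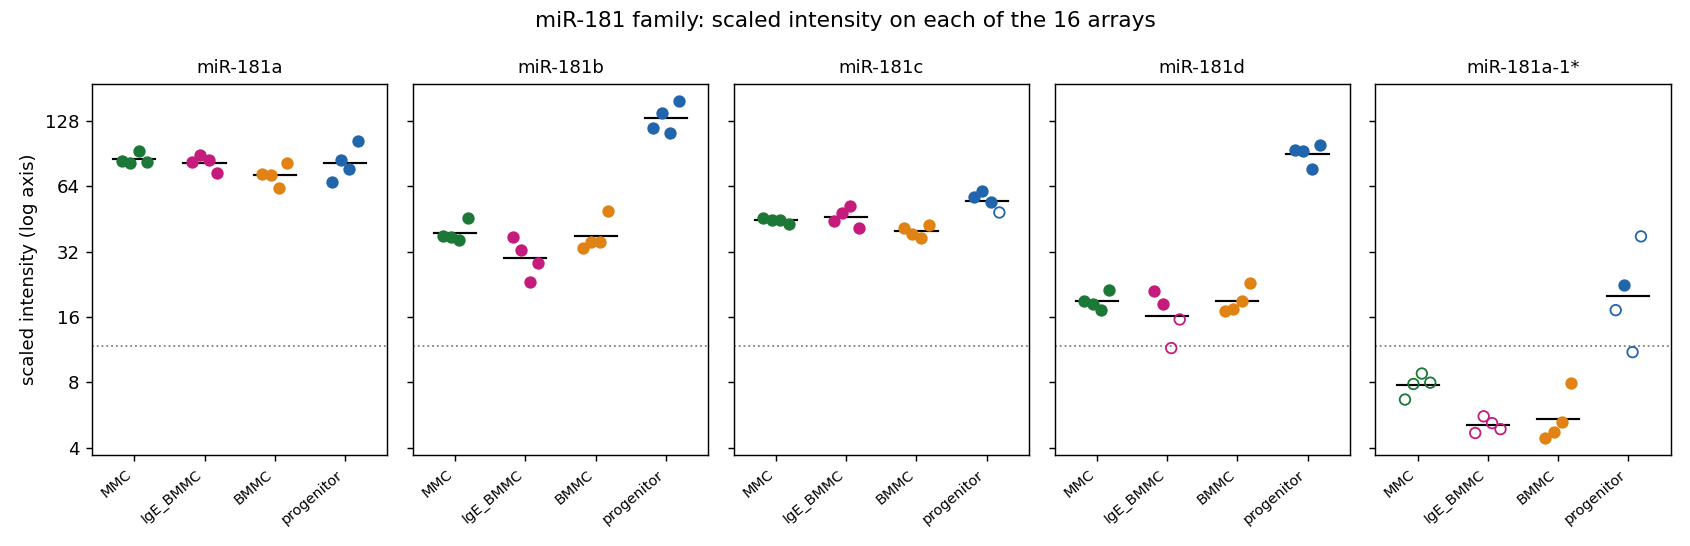
Scaled intensity (log axis, arbitrary units) of each member on the 16 arrays, 1 panel a member, with MMC, IgE_BMMC, BMMC and progenitor arrays from left to right. Filled points are well above background, open points are not, black lines are group means and the dotted line is the floor of 11.8. MiR-181b and miR-181d sit far higher on the 4 progenitor arrays than on all others, while miR-181a overlaps between all groups.

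MiR-181d had the largest difference of the family. Its scaled intensity was 18.9, 18.3, 17.3 and 21.4 in MMC, 21.0, 18.3, 11.5 and 15.6 in IgE_BMMC and 17.0, 17.4, 19.0 and 22.8 in BMMC, against 93.5, 93.2, 76.5 and 99.5 in progenitors. Every progenitor array lay above every mast cell array, as was so for 39.2% of the miRNAs tested in MMC, 46.0% in IgE_BMMC and 39.2% in BMMC, and the 3 mast cell groups overlapped one another. It was well above background on 4 arrays of each group except IgE_BMMC, where it was so on 2, and IgE_BMMC replicate 3 was at the floor. MiR-181b is the member nearest to it in sequence. It read 37.8, 37.2, 36.3 and 45.6 in MMC, 37.5, 32.5, 23.2 and 28.4 in IgE_BMMC and 33.1, 35.4, 35.5 and 49.4 in BMMC, against 119, 139.7, 113 and 159 in progenitors. Again the progenitor arrays stood above all 12 others without overlap, and all 16 were well above background.

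MiR-181a, the best known member, overlapped between the groups in this scaling. It read 83.6, 82.0, 92.7 and 82.8 in MMC, 82.4, 89.0, 84.1 and 73.8 in IgE_BMMC, 72.6, 71.7, 62.6 and 82.1 in BMMC, and 67.0, 84.6, 77.0 and 104 in progenitors. Progenitor replicate 4 was the highest and BMMC replicate 3 the lowest, and the groups overlapped. MiR-181c, 1 edit from miR-181a, moved in a narrow range. It read 45.5, 44.9, 44.8 and 43.1 in MMC, 44.1, 48.3, 51.8 and 40.9 in IgE_BMMC, 40.9, 38.4, 36.9 and 42.6 in BMMC, and 56.9, 60.9, 54.0 and 48.4 in progenitors. The progenitors were on average the highest and BMMC the lowest, and the IgE_BMMC arrays overlapped both. On progenitor replicate 4, the lowest of its group, miR-181c was not well above background.

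The passenger arm miR-181a-1* was close to the detection limit. It read 6.7, 7.9, 8.8 and 8.0 in MMC, 4.7, 5.6, 5.2 and 4.9 in IgE_BMMC and 4.4, 4.7, 5.2 and 8.0 in BMMC, against 17.2, 22.3, 11.0 and 37.6 in progenitors. It was well above background on 0 MMC, 0 IgE_BMMC, 4 BMMC and 1 progenitor arrays. All 12 mast cell values lay under the floor, and so did progenitor replicate 3. Before scaling, its intensity was 11.3 to 15.9 in BMMC and 5.8 to 25.3 in progenitors, which overlap.

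The first comparison, BMMC against progenitors, covers the maturation of marrow cells into mast cells. MiR-181d was 4.77-fold lower in BMMC and miR-181b 3.47-fold lower, miR-181c was 1.38-fold lower, and miR-181a did not pass the test. On the log2 scale the level of miR-181d was 4.24 ± 0.19 in BMMC and 6.50 ± 0.16 in progenitors (SD, n = 4 each), a difference of -2.25 (SE 0.16, limma adjusted p = 2.04e-08). MiR-181b averaged 5.24 ± 0.26 and 7.04 ± 0.22 in the same order, a difference of -1.79 (SE 0.16, limma adjusted p = 3.16e-07). The difference was -0.47 for miR-181c (SE 0.08, limma adjusted p = 1.20e-04) and -0.19 for miR-181a (95% interval -0.44 to 0.06, limma adjusted p = 0.167). For miR-181a-1* the fit gave -0.79 (SE 0.24, limma adjusted p = 0.0108), with every BMMC value at the floor and the slides at -1.30 and -0.27. On the 2 slides, each with 2 arrays of each group, the differences of miR-181b were -1.83 and -1.76 and those of miR-181d -2.27 and -2.23.

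The call of miR-181a-1* is weak: it was lost with a percentile over all probes, without scaling, after quantile normalization, with a doubled floor and with the 2 groups alone (limma adjusted p = 0.238, 0.782, 0.115, 0.239 and 0.0810), and without progenitor replicate 4 the difference was -0.49. Without progenitor replicate 1, miR-181a passed too, at -0.29 (limma adjusted p = 0.0331).

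Thus 4 of 5 members passed in BMMC, all lower, where 66.4% of the 217 miRNAs tested passed and 45.2% passed as lower. That count is read against a high background: most miRNAs differed between these cells. The sizes differed more than the count, with 10.1% of tested miRNAs at or below the difference of miR-181d, 13.8% at or below that of miR-181b, 44.2% for miR-181c and 53.5% for miR-181a. The median over all tested miRNAs was -0.30. Over the 5 members it was -0.79, which is the value of miR-181a-1* itself. Its size is set by the floor, and its weak call is among the 4. In these bulk samples, fewer cells of a type and less RNA per cell cannot be told apart.

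**Figure D2:**
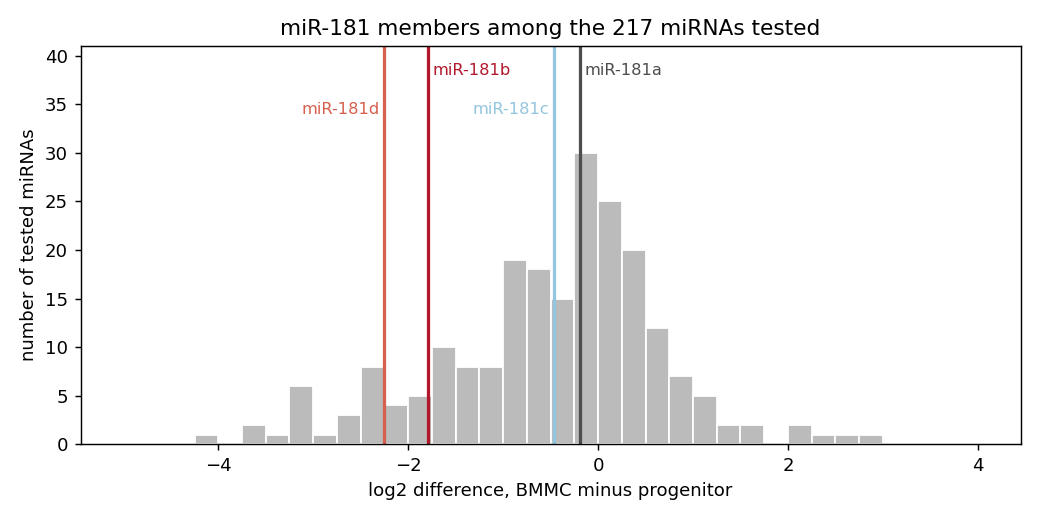
Histogram of the log2 difference, BMMC minus progenitor, over the 217 miRNAs tested (y axis, number of miRNAs), with coloured lines at 4 members. MiR-181d (-2.25) and miR-181b (-1.79) lie in the lower tail and miR-181c (-0.47) and miR-181a (-0.19) near the median of -0.30.

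MMC against progenitors gave the same picture in cells driven on to the mucosal type. The log2 difference was -2.25 for miR-181d (4.77-fold lower, SE 0.16, limma adjusted p = 1.51e-08) and -1.75 for miR-181b (3.36-fold lower, SE 0.16, limma adjusted p = 3.26e-07). MiR-181c was 1.23-fold lower (-0.30, SE 0.08, limma adjusted p = 0.00326), with groups that did not overlap. MiR-181a differed by 0.05 (95% interval -0.20 to 0.31, limma adjusted p = 0.699). Of 4 members tested 3 passed, all lower, where 73.0% of 189 miRNAs passed and 43.4% passed as lower. MiR-181a-1* was not tested, since it was well above background on too few arrays of both groups.

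IgE_BMMC against progenitors sets 2 groups of about equal brightness side by side. MiR-181d was 5.54-fold lower (log2 -2.47, SE 0.16, limma adjusted p = 5.41e-09) and miR-181b 4.39-fold lower (-2.13, SE 0.16, limma adjusted p = 4.18e-08). With no scaling at all these differences were -2.29 and -2.16, but they shrank to -1.15 and -0.81 with a percentile over all probes and to -0.78 and -0.88 under normexp background correction. The unscaled intensity of miR-181b was 11.0 to 24.1 in IgE_BMMC and 59.2 to 107 in progenitors, and that of miR-181d 5.5 to 13.5 and 40.1 to 67.0, again without overlap. MiR-181c was 1.19-fold lower (-0.25, SE 0.08, limma adjusted p = 0.0101), a call lost under normexp, with the authors' total signal and with the 2 groups alone (limma adjusted p = 0.0920, 0.0507 and 0.0534), and miR-181a differed by 0.00 (95% interval -0.25 to 0.25, limma adjusted p = 0.992). Of 4 members tested 3 passed, all lower, where 79.5% of 176 miRNAs passed and 51.1% passed as lower. MiR-181a-1* was not tested here either. The comparisons of MMC, IgE_BMMC and BMMC share the 4 progenitor arrays, so their likeness is not independent.

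**Figure D3:**
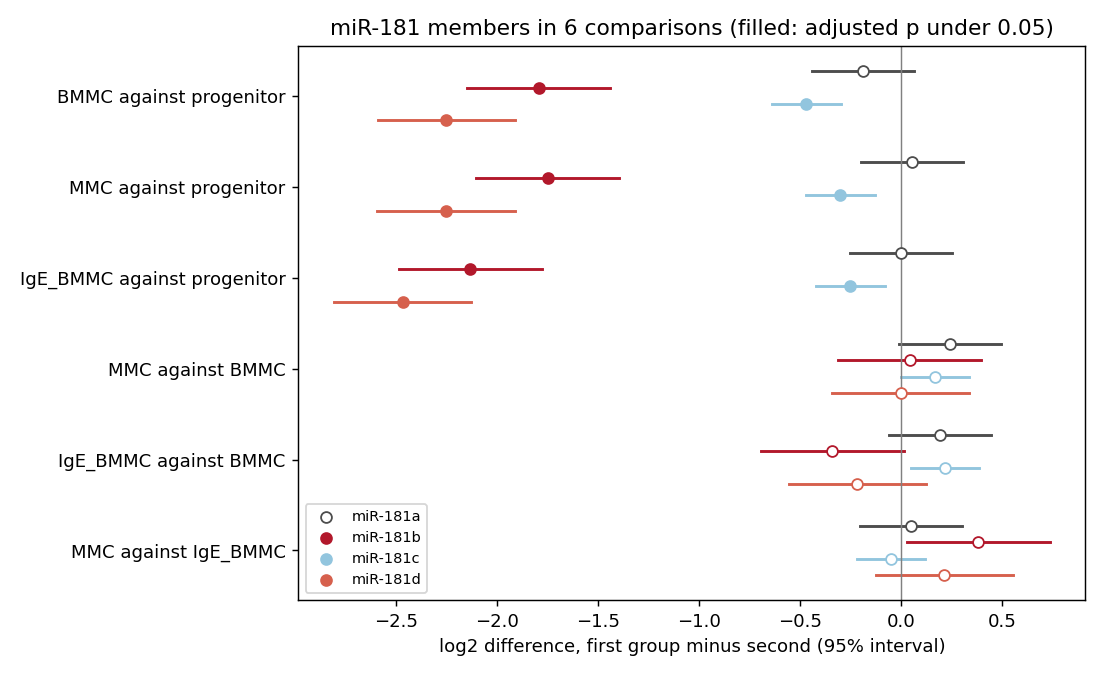
Log2 difference (x axis, first group minus second) with its 95% interval for miR-181a, miR-181b, miR-181c and miR-181d in 6 comparisons, from top to bottom. Filled points passed at an adjusted p under 0.05. Against progenitors miR-181b and miR-181d lie between -2.47 and -1.75, and no member passed in the comparisons among mast cells.

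The size of these differences hangs on how the arrays were processed. Before scaling, miR-181b read 84.3 to 98.3 in BMMC and 59.2 to 107 in progenitors, which overlap, and miR-181d 43.4 to 46.9 and 40.1 to 67.0. Without scaling, the median of all miRNAs tested was 1.38 higher in BMMC, and miR-181b stood at 0.21 and miR-181d at -0.25. With a percentile over all probes the median was 0.72, and miR-181b and miR-181d were at -0.25 and -0.71. MiR-181a and miR-181c turned positive under both, at 1.82 and 1.54 without scaling and at 1.36 and 1.08 with the percentile over all probes. In MMC against progenitors miR-181b and miR-181d were at -0.57 and -1.08 with the percentile over all probes and at -0.75 and -1.26 without scaling. In BMMC both values of miR-181c passed as higher (limma adjusted p = 4.03e-09 and 0.00303). In MMC it passed as higher at 0.88 with the percentile over all probes and 0.70 without scaling (limma adjusted p = 0.00973 and 4.67e-05). In IgE_BMMC it did so at 1.07 with the percentile over all probes and 0.60 in the authors' deposited table (limma adjusted p = 0.00297 and 0.0431), but was at -0.28 without scaling. After quantile normalization miR-181c was positive but passed in no group. MiR-181a passed as higher than in progenitors in several of these settings. In MMC it was at 1.23 with the percentile over all probes, 1.05 without scaling, 0.47 after quantile normalization and 1.01 in the authors' deposited table (limma adjusted p = 1.42e-05, 1.98e-05, 4.98e-04 and 6.43e-05). There miR-181a also passed as higher with its dimmer probe in the scaling used here (0.35, limma adjusted p = 0.0264). With the authors' total signal per miRNA it passed in MMC at 0.29 (limma adjusted p = 0.0425). The dimmer probe did not pass in BMMC (0.10, limma adjusted p = 0.555). In IgE_BMMC it was at 1.32 with the percentile over all probes, 0.62 after quantile normalization and 1.03 in the authors' deposited table (limma adjusted p = 7.84e-06, 4.11e-05 and 5.80e-05). In BMMC it passed as higher at 1.82 without scaling and 1.36 with the percentile over all probes (limma adjusted p = 2.56e-08 and 6.91e-06). It did so too at 0.45 after quantile normalization and 0.90 in the authors' deposited table (limma adjusted p = 8.45e-04 and 2.27e-04). Under normexp it passed as lower, at -0.80 in BMMC and -0.38 in MMC (limma adjusted p = 1.03e-07 and 0.00119). Of the miRNAs called, 31.9% were higher in BMMC in the scaling used here, 85.9% without scaling, 79.4% with the percentile over all probes, 60.7% after quantile normalization, 12.5% after normexp background correction and 70.2% in the authors' deposited table. Relative to the median of all tested miRNAs, miR-181d in BMMC stayed below it by 0.68 under normexp and by more in the other ways of processing.

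To take the scale factor out, each member was set against miR-181a on the same array, a difference that no factor can change unless a value sits at the floor. The log2 difference of miR-181b from miR-181a was -1.12 ± 0.20 in MMC, -1.46 ± 0.30 in IgE_BMMC, -0.92 ± 0.18 in BMMC and 0.68 ± 0.12 in progenitors (SD, n = 4 each). That of miR-181d was -2.17 ± 0.19 in MMC, -2.33 ± 0.36 in IgE_BMMC, -1.93 ± 0.17 in BMMC and 0.14 ± 0.24 in progenitors. Probes differ in brightness per molecule, so only the change of these values between groups is read. That change was -1.60 for miR-181b (SE 0.16, limma adjusted p = 6.98e-08) and -2.06 for miR-181d (SE 0.18, limma adjusted p = 1.41e-08) in BMMC against progenitors. It was -1.80 and -2.31 in MMC and -2.14 and -2.47 in IgE_BMMC, with limma adjusted p-values of 1.21e-08, 2.01e-09, 1.12e-09 and 8.69e-10. In these terms miR-181b and miR-181d changed by a different amount than miR-181a, with no overlap between progenitors and any mast cell group. How many of all miRNAs show no overlap in these terms was not counted. The change of BMMC from progenitors ran from -1.85 to -0.97 for miR-181b and from -2.20 to -1.21 for miR-181d over 15 other ways of processing, all past the test. Those of the 15 that alter only the scale factor, the filter, a block or the groups in the fit cannot move this difference. They are thus no separate check of its size. Relative to miR-181a, 37.0% of 216 miRNAs passed as lower in BMMC, 43.1% in MMC and 48.6% in IgE_BMMC.

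**Figure D4:**
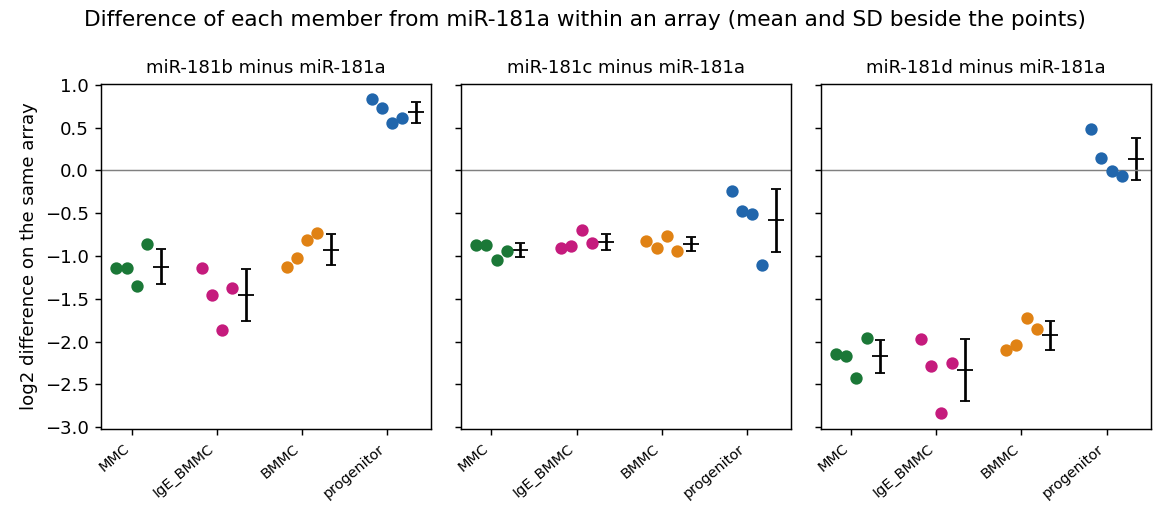
Log2 difference of miR-181b, miR-181c and miR-181d from miR-181a on the same array (y axis), for MMC, IgE_BMMC, BMMC and progenitors, with the mean and SD beside the 4 points of each group. The progenitor points of miR-181b (0.55 to 0.83) and miR-181d (-0.06 to 0.48) lie above all mast cell points, and those of miR-181c spread from -1.10 to -0.23. The level of the zero line depends on the probes and is not a comparison of abundance.

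MiR-181c did not part from miR-181a as clearly. Relative to miR-181a it changed by -0.28 in BMMC (SE 0.15, limma adjusted p = 0.128), by -0.35 in MMC (SE 0.15, limma adjusted p = 0.0460) and by -0.25 in IgE_BMMC (SE 0.15, limma adjusted p = 0.139), each against progenitors. Progenitor replicate 4, where miR-181c was not well above background, and progenitor replicate 1 moved these values in opposite directions. On replicate 4 the difference of miR-181c from miR-181a was -1.10, and between -0.51 and -0.23 on the other progenitor arrays. Without replicate 4 the changes were -0.45 (limma adjusted p = 0.00102), -0.53 (limma adjusted p = 2.11e-04) and -0.43 (limma adjusted p = 0.00132). Without replicate 1 they were -0.16 (limma adjusted p = 0.327), -0.24 (limma adjusted p = 0.159) and -0.14 (limma adjusted p = 0.403). The MMC call was lost in 14 of the 16 fits that each left out 1 array.

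**Figure D5:**
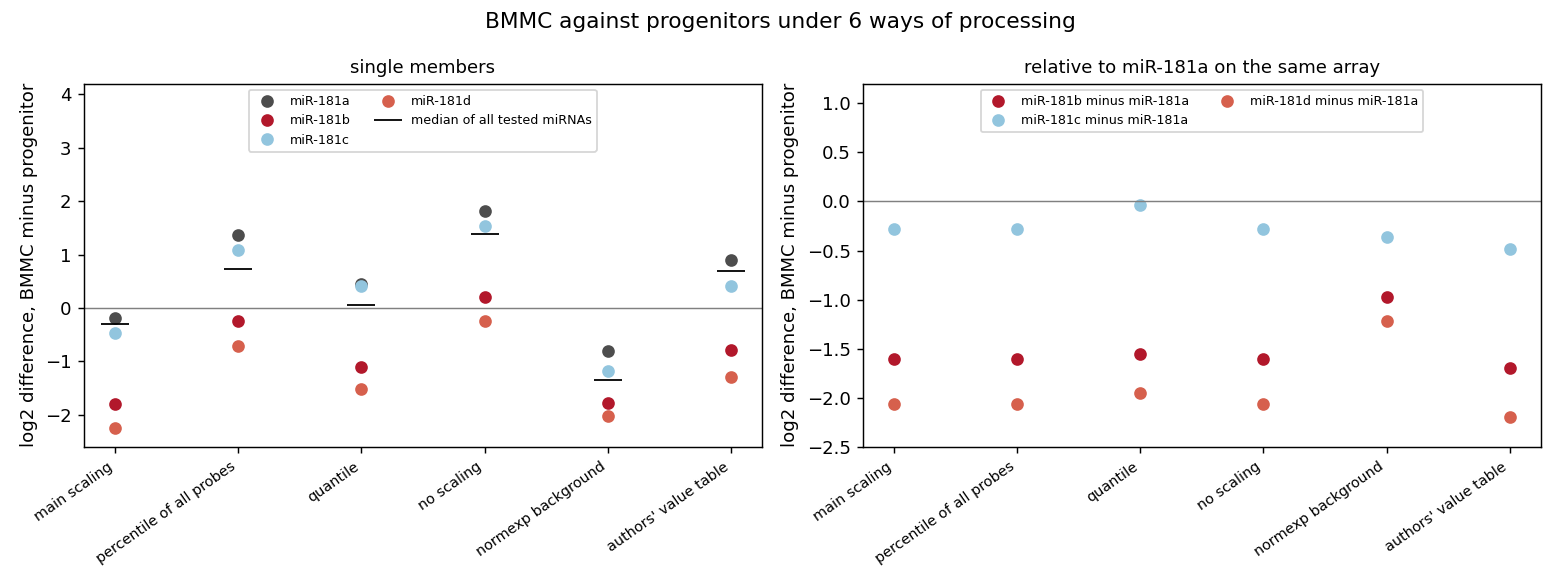
Log2 difference, BMMC minus progenitor (y axis), of the members under 6 ways of processing (x axis), on the left for single members with the median of all tested miRNAs as a black bar, on the right relative to miR-181a on the same array. On the left miR-181a runs from -0.80 to 1.82 with the median. On the right miR-181b and miR-181d stay at or below -0.97 in all 6. The main scaling, the percentile of all probes and no scaling give equal values there by construction.

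Among the mast cell groups no member passed, and the differences were small. MMC had IL-9 and TGF-beta for 5 more days than BMMC, so the cytokines and the longer culture cannot be told apart. MMC against BMMC gave 0.24 for miR-181a (limma adjusted p = 0.160), 0.04 for miR-181b (limma adjusted p = 0.999), 0.17 for miR-181c (limma adjusted p = 0.150) and 0.00 for miR-181d (limma adjusted p = 1). Their 95% intervals were -0.01 to 0.50, -0.31 to 0.40, 0.00 to 0.34 and -0.34 to 0.34. No member of 5 passed in limma, none at an unadjusted p under 0.05, where 20.8% of 207 miRNAs passed. MiR-181a-1* is counted among the 5 but could not pass, since it was at the floor on every MMC and BMMC array. These values turned with the scaling: without any, 4 members passed as lower in MMC (-1.01 for miR-181d to -0.77 for miR-181a), and under normexp background correction all 5 passed. Most miRNAs did the same: 150 of 207 passed without scaling, all lower, and 153 of 207 under normexp, 148 of them higher. Relative to miR-181a, 0 of 4 members passed in limma, with none at an unadjusted p under 0.05, where 5.83% of 206 miRNAs passed. Of these 4, miR-181a-1* carried only the change of miR-181a itself. MiR-181c was the member whose MMC and BMMC arrays did not overlap, as was so for 34.3% of the miRNAs tested.

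IgE_BMMC against BMMC sets cells sensitised with IgE and then given antigen for 2 hours beside BMMC. The part of sensitisation alone was not tested. No member of 5 passed in limma and 1 was at an unadjusted p under 0.05, where 25.6% of 207 miRNAs passed. Here too miR-181a-1* could not pass, since it was at the floor on all arrays of both groups. MiR-181c was 0.22 higher in IgE_BMMC (95% interval 0.05 to 0.39, limma adjusted p = 0.0564), miR-181a 0.19 higher (limma adjusted p = 0.307), miR-181b at -0.34 (95% interval -0.69 to 0.01, limma adjusted p = 0.162) and miR-181d at -0.22 (limma adjusted p = 0.410). Relative to miR-181a, miR-181b was lower in IgE_BMMC by -0.53 (SE 0.16, limma adjusted p = 0.0303), and the groups did not overlap, which was not counted over all miRNAs. Its within-array difference was -1.14, -1.45, -1.86 and -1.38 in IgE_BMMC and -1.13, -1.02, -0.82 and -0.73 in BMMC, so that the nearest arrays were 0.01 apart. That call was lost without BMMC replicate 2, 3 or 4 or IgE_BMMC replicate 2 or 3, with limma adjusted p-values up to 0.103, and it turned to 0.14 under normexp background correction. The same test passed 15.5% of 206 miRNAs. MiR-181d gave -0.41 (limma adjusted p = 0.166).

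MMC against IgE_BMMC passed 0 of 4 members in limma, with 1 at an unadjusted p under 0.05, where 31.0% of 174 miRNAs passed. The differences were 0.05 for miR-181a, 0.38 for miR-181b (95% interval 0.03 to 0.74, limma adjusted p = 0.0851), -0.05 for miR-181c and 0.21 for miR-181d. Relative to miR-181a, 0 of 3 passed in limma, with none at an unadjusted p under 0.05, where 22.0% of 173 miRNAs passed. Without IgE_BMMC replicate 1, miR-181b passed at 0.49 (limma adjusted p = 0.0415). With all arrays, its difference on the 2 slides was 0.09 and 0.68.

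The probes of the members see different parts of these short sequences. By the array's own coordinates (mm9) the brighter probe spans 14 bases for miR-181a and for miR-181b, 19 for miR-181c, 17 for miR-181d and 18 for miR-181a-1*, counted from the 3′ end. The stretches the probes read are in capitals, to show how much they share.
miR-181a: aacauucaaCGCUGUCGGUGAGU
miR-181b: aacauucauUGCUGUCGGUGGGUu
miR-181c: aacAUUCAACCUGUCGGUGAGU
miR-181d: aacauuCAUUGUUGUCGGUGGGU
The stretch of miR-181d differs from miR-181b at 1 base, that of miR-181b from miR-181a at 2 bases, and that of miR-181c is 1 edit from miR-181a. How far the probe of a member also read its near neighbour was not tested. The dimmer probe of each member ended at the same place and is 1 base shorter. With it, BMMC against progenitors gave -1.74 for miR-181b, -1.59 for miR-181d, -0.81 for miR-181c and 0.10 for miR-181a, with the dimmer miR-181d probe under the floor on all BMMC arrays.

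Other miRNAs that followed the members across the 16 arrays were picked by Pearson's r of log2 levels among 212 candidates, as a description. For miR-181d these were miR-19a, miR-20a and miR-148a (r = 0.99 each) and for miR-181b miR-130b, miR-148a and miR-25 (r = 0.97 each). MiR-181a was nearest to miR-340-3p (0.82), miR-331-3p (0.72) and let-7d* (0.66), and miR-181c to miR-744 (0.87), miR-378 (0.85) and miR-805 (0.84). MiR-181a-1* was nearest to miR-10b (0.96), miR-18a* and miR-338-5p (0.94 each), with 13 of its 16 values at the floor. These correlations run over arrays that share 4 groups and 1 scale factor each, and miRNAs that split progenitors from mast cells are bound to score high.

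Of the 6 blood-cell miRNAs listed beside the family (miR-142-3p, miR-142-5p, miR-223, miR-150, miR-155 and miR-146a), 5 fell in BMMC against progenitors, at a median of -1.32 over the 6 tested. In MMC 5 of 5 tested fell and in IgE_BMMC 5 of 6. Of all miRNAs tested, 45.2% passed as lower in BMMC, 43.4% in MMC and 51.1% in IgE_BMMC. MiR-146a, a brake on inflammatory signalling, fell by 3.10 on the log2 scale in BMMC (SE 0.30), and miR-142-3p by 1.08 (SE 0.08). These falls are in the scaling used here, and the lists were not read under the others. In BMMC against progenitors the median of all tested miRNAs was -0.30 here, 0.72 with the percentile over all probes and 1.38 without scaling. Of 12 miRNAs known from blood stem and progenitor cells, 6 were tested in BMMC and 5 fell, and 5 of 5 fell in MMC and in IgE_BMMC, against the background shares given above. MiR-126-3p and miR-196b of that list were well above background on no mast cell array. They were tested only because progenitors carried them, so their falls to the floor were fixed by the filter. MiR-130a of that list fell by 3.51 in BMMC (SE 0.15). Against BMMC, none of the 4 tested members of that list passed in MMC or in IgE_BMMC, where 20.8% and 25.6% of all miRNAs tested passed.

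MiRNAs of other blood cells, read only in the scaling used here, moved with the same comparisons. MiR-223, a granulocyte and monocyte miRNA, read 144 to 200.0 in MMC, 302 to 500.1 in IgE_BMMC and 244 to 379 in BMMC, against 4209 to 7271 in progenitors. Of 3 erythroid miRNAs, miR-451 was well above background in progenitors alone and miR-144 in no group. MiR-486 was not well above background in progenitors or IgE_BMMC and was so in MMC and BMMC, with no call against progenitors (0.14 in MMC and -0.39 in BMMC, limma adjusted p = 0.594 and 0.134). The summed intensity of these 3 was 18.4 to 24.0 in MMC, 9.98 to 11.5 in IgE_BMMC, 9.39 to 14.6 in BMMC and 128 to 254 in progenitors. Of 6 stromal and endothelial miRNAs, miR-143, miR-145, miR-199a-5p and miR-214 were well above background on no array, and the sums were 14.9 to 17.7, 11.8 to 16, 16.7 to 19.8 and 44.6 to 72.5 in the same order of groups. MiR-126-3p, known from endothelium and stem cells, fell to the floor in all 3 mast cell groups (-1.66 in BMMC, a size set by the floor). MiR-152, in contrast, was well above background on no progenitor array and passed as higher in BMMC (0.34, limma adjusted p = 0.0139). The sums of the lymphocyte pair miR-150 and miR-155 were 74.7 to 97.3, 72.9 to 102, 73.2 to 86.9 and 147 to 257. MiR-150 itself was well above background on no progenitor array. It was not called in BMMC or IgE_BMMC against progenitors (-0.18 and -0.39, limma adjusted p = 0.633 and 0.239). MiR-155 passed as lower in all 3 mast cell groups (-1.56 in BMMC, limma adjusted p = 1.93e-06). The part of other cells among the c-kit-positive progenitors in the falls of miR-181b and miR-181d was not tested.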

How the data were processed

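Small RNA was measured on 16 Agilent miRNA arrays from 100 ng of total RNA each, with an RNA integrity number above 8 per the labels' protocols. Spot signals are intensity values that the authors extracted with Agilent Feature Extraction 9.5.1.1, per the file headers, background-subtracted and not scaled between arrays. The authors' deposited value table is in log2 units, and it was rebuilt from the total signals to within 0.0155. No spot was saturated. Control and outlier spots were left out, spots were averaged by probe, scaled, floored and turned to log2 values, and each miRNA was read from its brightest probe. The fit kept 217 of 577 miRNAs, those that 3 or more arrays of any group measured well above background. Tests used limma 3.58.1 in R 4.3.3 with 1 coefficient per group (12 residual and 0.876 prior degrees of freedom) and Benjamini-Hochberg adjustment within a comparison, and passed at an adjusted p under 0.05. A second fit used differences from miR-181a. The steps were tested on simulated data. The text names all members, the 3 miRNAs most correlated with each, and up to 4 members of each list. The members and lists were chosen with earlier results of these data known. Precision is limited by the number of arrays. A limma test between the 2 slides called 0 of 217 miRNAs (9 at an unadjusted p under 0.05). The lowest unadjusted p of a family member in that limma test was 0.0103. Alternatives changed the scaling, background correction, probe, floor, filter, value source, block and samples.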

Additional observations from a re-analysis of the deposited data

Results flagged for a closer look

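The log2 level of miR-181a was 6.53 on MMC replicate 3, apart from 6.36 to 6.38 on the other MMC arrays, with a gap of 0.844 of the group's range, above Dixon's 95% critical value for 4 samples. It was the only value marked among 30 groups of 4 arrays tested, and chance marks about 1 group in 20.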

How the results depend on the processing

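The falls of miR-181b and miR-181d in mast cells against progenitors kept their direction and stayed past the test in each of the 15 other ways of processing and in the fits that each left out 1 of the 16 arrays, with these exceptions for BMMC: without scaling miR-181b was at 0.21 (adjusted p = 0.347 in limma) and miR-181d at -0.25 (0.156), and with a percentile over all probes miR-181b was at -0.25 (0.326). Relative to miR-181a both passed in all of these, though a changed scale factor, filter or block cannot move that difference apart from values at the floor. The small values of miR-181a and miR-181c, and of all members between mast cell groups, did not keep their sign. In some settings miR-181a and miR-181c passed as higher than in progenitors. The values that turned, with counts that moved, follow on the log2 scale. The cause was not tested. With a percentile over all probes, BMMC against progenitors gave 1.36 for miR-181a and 1.08 for miR-181c, and MMC against progenitors gave 0.88 for miR-181c. IgE_BMMC against progenitors gave 1.07 for miR-181c, and MMC against BMMC gave -0.13 for miR-181a, -0.33 for miR-181b and -0.20 for miR-181c, with 21 miRNAs called. IgE_BMMC against BMMC gave -0.033 for miR-181a and -0.0058 for miR-181c, and MMC against IgE_BMMC gave -0.093 for miR-181a. With the authors' total signal per miRNA, BMMC against progenitors gave 0.17 for miR-181a, and MMC against BMMC gave -0.086 for miR-181b and -0.017 for miR-181c. IgE_BMMC against BMMC gave 1 of the members called, with 51 miRNAs called. With the authors' deposited value table, BMMC against progenitors gave 0.90 for miR-181a and 0.41 for miR-181c, and MMC against progenitors gave 0.39 for miR-181c. IgE_BMMC against progenitors gave 0.60 for miR-181c, and MMC against BMMC gave -0.087 for miR-181b and -0.017 for miR-181c, with 10 miRNAs called. IgE_BMMC against BMMC gave 26 miRNAs called, and MMC against IgE_BMMC gave -0.013 for miR-181a, with 33 miRNAs called. With a doubled floor, BMMC against progenitors gave 0.021 for miR-181a-1* relative to miR-181a, and MMC against IgE_BMMC gave -0.052 for miR-181d relative to miR-181a. With the mean of all probes, MMC against IgE_BMMC gave -0.047 for miR-181d relative to miR-181a. With no filter, IgE_BMMC against BMMC gave 0 of the members called relative to miR-181a and 30 miRNAs called. With no scaling, BMMC against progenitors gave 1.82 for miR-181a, 0.21 for miR-181b and 1.54 for miR-181c. There 2 of the members were called, miR-181a and miR-181c, both as higher, with 184 miRNAs called. MMC against progenitors gave 0.70 for miR-181c. IgE_BMMC against progenitors gave -0.025 for miR-181a, and MMC against BMMC gave -0.77 for miR-181a, -0.97 for miR-181b and -0.84 for miR-181c, with 4 of the members called and 150 miRNAs called. IgE_BMMC against BMMC gave -1.84 for miR-181a and -1.82 for miR-181c, with 4 of the members called, 2 of the members called relative to miR-181a and 196 miRNAs called, and MMC against IgE_BMMC gave 0.97 for miR-181c, -0.046 for miR-181d relative to miR-181a, with 4 of the members called and 157 miRNAs called. With normexp background correction, MMC against progenitors gave -0.38 for miR-181a, and IgE_BMMC against progenitors gave -0.056 for miR-181a. MMC against BMMC gave 0.61 for miR-181d, 0.032 for miR-181b, 0.068 for miR-181c and 0.18 for miR-181d relative to miR-181a, with 5 of the members called, 2 of the members called relative to miR-181a and 153 miRNAs called, and IgE_BMMC against BMMC gave 0.89 for miR-181b, 1.24 for miR-181d, 0.14 for miR-181b and 0.49 for miR-181d relative to miR-181a, with 5 of the members called, 3 of the members called relative to miR-181a and 168 miRNAs called. MMC against IgE_BMMC gave -0.32 for miR-181a, -0.43 for miR-181b, -0.64 for miR-181d, -0.11 for miR-181b and -0.32 for miR-181d relative to miR-181a, with 4 of the members called, 2 of the members called relative to miR-181a and 132 miRNAs called. With only the compared groups in the fit, MMC against BMMC gave 1 of the members called and 65 miRNAs called. With quantile normalization, BMMC against progenitors gave 0.45 for miR-181a and 0.41 for miR-181c, and MMC against progenitors gave 0.28 for miR-181c. IgE_BMMC against progenitors gave 0.49 for miR-181c, and MMC against BMMC gave -0.31 for miR-181b and -0.13 for miR-181c. IgE_BMMC against BMMC gave -0.10 for miR-181c relative to miR-181a, with 1 of the members called and 50 miRNAs called, and MMC against IgE_BMMC gave -0.15 for miR-181a. With the second brightest probe, BMMC against progenitors gave 0.10 for miR-181a, and MMC against BMMC gave -0.057 for miR-181c. IgE_BMMC against BMMC gave -0.0068 for miR-181a, 0.0068 for miR-181d relative to miR-181a, with 0 of the members called relative to miR-181a, and MMC against IgE_BMMC gave -0.26 for miR-181d relative to miR-181a.

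Leaving out 1 array at a time, miR-181a against progenitors ran from -0.044 to 0.17 in MMC, from -0.096 to 0.12 in IgE_BMMC and from -0.29 to -0.077 in BMMC, past the test there without progenitor replicate 1. In MMC against BMMC miR-181b ran from -0.030 to 0.17 and miR-181d from -0.061 to 0.088. In IgE_BMMC against BMMC between 0 and 1 of the members passed, singly and relative to miR-181a, and 33 to 72 miRNAs passed, with 33 without BMMC replicate 2 and 35 without IgE_BMMC replicate 2. MiR-181c relative to miR-181a ran from -0.018 to 0.059 there. In MMC against IgE_BMMC, 0 to 1 of the members and 44 to 70 miRNAs passed, miR-181c ran from -0.11 to 0.0070 and miR-181d relative to miR-181a from -0.0051 to 0.28. The replicate numbers in the titles showed no clear pairing of the samples, though this check cannot exclude shared cultures. The correlation of same-numbered arrays' deviations ran from -0.41 to 0.47, over 0.1 in 8 of 24 pairs. It was positive for all pairs in MMC against IgE_BMMC (0.07 to 0.47) and IgE_BMMC against progenitors (0.02 to 0.23), and of both signs in the other comparisons. Of 16 arrays, 4 correlated best with their own number. With the replicate number as a block, 4, 3 and 3 members passed in BMMC, MMC and IgE_BMMC against progenitors, and relative to miR-181a 3, 2 and 2. Of all miRNAs, 138 of 217, 139 of 189 and 141 of 176 passed singly with that block. The floor of 1 was chosen after seeing the data: with it miR-181a-1* was at -1.88 in BMMC against progenitors. Signal over background limits miR-181a-1*, and miR-181d in IgE_BMMC.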
